A study of Mus musculus with 14 samples.

Results

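Wild-type mouse embryonic stem (ES) cells after 72 h of mTOR inhibition were compared with untreated cells of the same line. The comparison rests on 4 of the 14 RNA-seq libraries of the series, chosen by their labels. All libraries come from ES cells of the E14 background, a mouse line grown here in fetal bovine serum and LIF on gelatin, without feeder cells, and the paper's methods state that the cells were not authenticated. The 2 untreated libraries (time 0 h, treatment control) were cultured without inhibitor, and the 2 treated libraries received 200 nM INK128, a catalytic inhibitor of mTOR, for 72 h. No gene was altered in these 4 libraries. The other 10 libraries are wild type at 24 h and 144 h and a *Tet1/2* double knockout (DKO) at 0, 24 and 72 h, each group holding 2 replicates. They entered the fit and are used below only to place the 72 h state. According to the paper's reporting summary the replicates are biological and the time points of a replicate were processed in parallel.

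mTOR is a kinase that couples growth to nutrients, growth factors and energy. When active it promotes translation, ribosome production and the synthesis of amino acids, nucleotides and lipids, in part through the transcription factors ATF4, HIF1α and SREBP, and it holds back autophagy and lysosome production, in part by keeping the factors TFEB and TFE3 out of the nucleus. In mouse blastocysts and ES cells its inhibition brings about a reversible pause that resembles diapause.

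RNA was extracted from the same number of sorted cells in each case, ERCC spike-in RNAs were used, and 500 ng of total RNA entered each library. The labels name the spike-ins between extraction and library preparation. Whether their amount was set by cell number or by RNA mass is not given in the sources used here, so the values cannot be read as levels per cell with certainty. Levels are given as spike-in normalized TPM, called normalized TPM here. TPM is a transcript abundance scaled to a fixed sum per library, and normalized TPM is the deposited TPM times 1 factor per library, taken from the authors' normalized table. The factor was 2.11 in both untreated libraries and 1.65 and 1.49 in the treated libraries. Log2 changes are differences of group means of log2(normalized TPM + 1) with a standard error from limma, so they understate the change of genes with low levels. The median log2 change over the 18232 genes tested was −0.33 in normalized TPM and 0.04 in plain TPM, the deposited values without the factor. A gene that moved with the bulk of the transcriptome thus has a log2 change near −0.33 in normalized TPM. In bulk samples, fewer cells that express a gene and less RNA of it per cell cannot be told apart. An error in a factor would move all genes of that library together.

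At an adjusted p under 0.05 (limma, Benjamini-Hochberg over all genes tested), 1385 genes (7.6%) were called lower and 127 (0.697%) higher after 72 h in normalized TPM. The median log2 change was −1.25 among the genes called lower and 1.31 among those called higher. In plain TPM, 2080 genes (11.4%) were called lower and 2301 (12.6%) higher. All 127 genes called higher in normalized TPM were also called higher in plain TPM, 1226 genes (6.72%) were called lower on both scales, and 0 genes were called in opposite directions, although 2174 genes were called higher in plain TPM alone. With the replicate number as a block within each genotype, 4633 genes (25.4%) were called lower and 519 (2.85%) higher. The calls leaned on every library. Without 0 h replicate 1 there were 424 lower and 32 higher calls, without 0 h replicate 2 there were 161 and 15, without 72 h replicate 1 there were 445 and 18, and without 72 h replicate 2 there were 58 and 9.

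**Figure D1:**
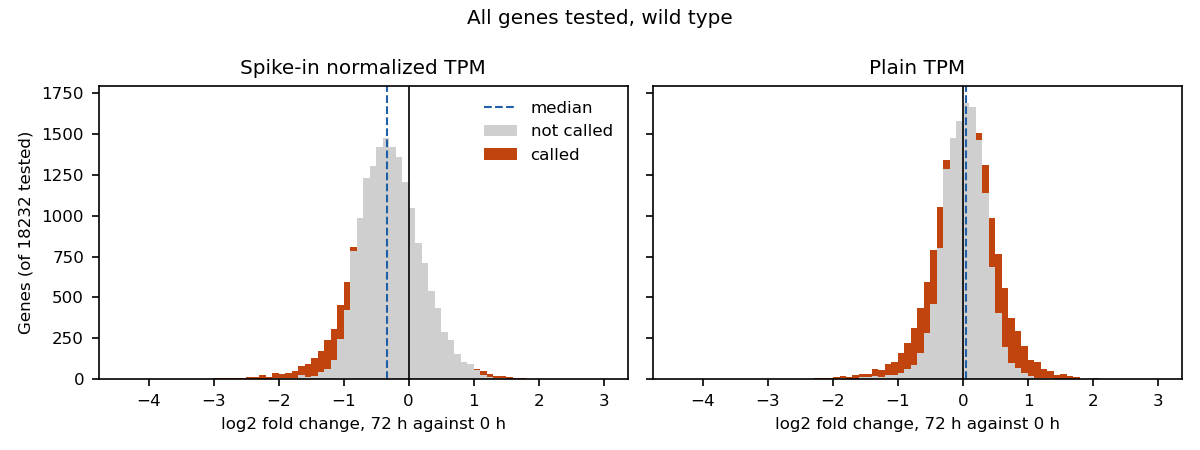
Distribution of the log2 change of the 18232 genes tested, wild type at 72 h against 0 h, in spike-in normalized TPM and in plain TPM. The x axis is the log2 change and the y axis the number of genes per bin, with called genes in orange, the others in gray and the median as a dashed line. The median lies at −0.33 in normalized TPM and at 0.04 in plain TPM.

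The libraries carried the markers of ES cells. The 28 genes of a list of core and naive pluripotency summed to 14826 and 16543 in the untreated and 14425 and 12722 in the treated libraries, in normalized TPM. The 9 fibroblast markers, which would report feeder cells, summed to 23.7 and 21.3 in the untreated and 16.6 and 11.4 in the treated libraries. *Lum* was listed at 0 in all 4 libraries and *Col1a1* did not exceed 1.08 normalized TPM. The 18 primitive endoderm markers summed to 1135 and 1378 in the untreated and 859.9 and 899 in the treated libraries, and 0 h replicate 2 was the highest of the 4. The 12 trophectoderm markers summed to 139 and 192 in the untreated and 71.8 and 67.03 in the treated libraries, the 8 mesendoderm markers to 14.9 and 14.5 in the untreated and 20.5 and 16.4 in the treated libraries and the 9 neuroectoderm markers to 190.4 and 216 in the untreated and 96.9 and 112 in the treated libraries.

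The largest shares of lower calls lay in lists of amino acid, nucleotide, lipid and sugar metabolism and of the proteasome. The share of members called lower was 65% in the ATF4 list, 50% among amino acid transporters, 50% in fatty acid synthesis, 45% among proteasome subunits, 44.8% in serine, one-carbon and nucleotide synthesis and 42.4% in glycolysis, beside 7.6% of all genes. It was 0% among lysosome genes, 1.23% among cytosolic ribosomal proteins and 3.70% in core and naive pluripotency. In 45 of the lists 0 genes were called higher by limma, and at an unadjusted p under 0.05 between 0 and 2 members of each were higher. Below, fell and rose mean called lower and called higher in normalized TPM without the block, and the counts with the replicate block follow in parentheses where they differ by over 1.5 times. Counts in plain TPM follow there where the share of rises among the calls moved by over 10 percentage points.

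**Figure D2:**
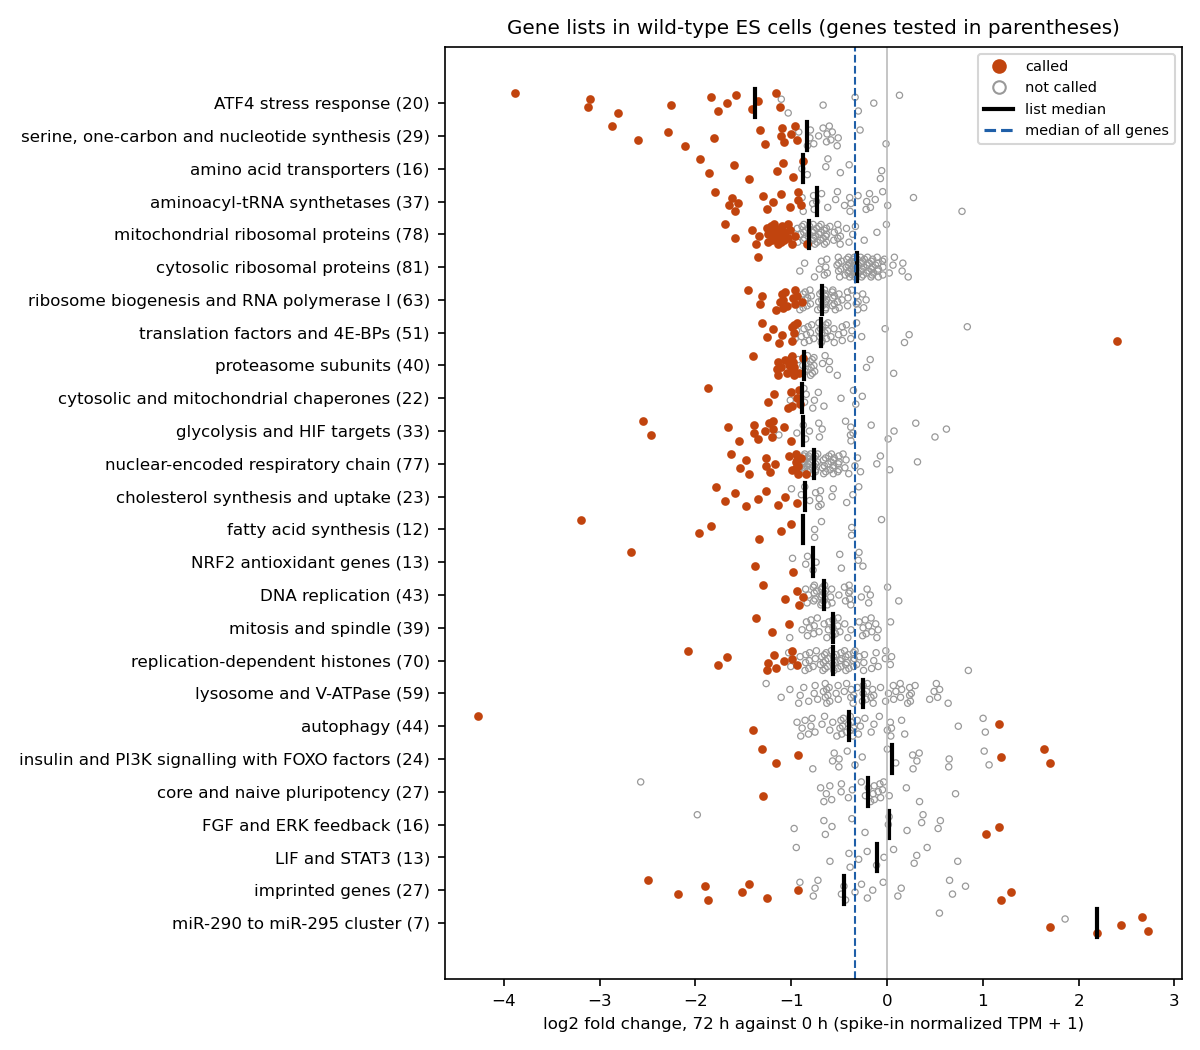
Log2 change of each tested gene in selected gene lists, wild type at 72 h against 0 h, in spike-in normalized TPM. Called genes are orange points and the others open gray circles. A black bar marks the list median and a dashed line the median of all genes. Numbers in parentheses are genes tested. The median of the ATF4 list is −1.38 and that of the miR-290 to miR-295 cluster is 2.19, in normalized TPM.

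Most tested genes of the amino acid response fell. ATF4 is a transcription factor of amino acid shortage and stress whose mRNA is translated when mTOR is active, and it switches on genes for the uptake, synthesis and tRNA charging of amino acids. Of 20 genes tested on the ATF4 list, 13 fell and 0 rose, and the median log2 change of the list was −1.38 in normalized TPM and −0.94 in plain TPM, beside −0.33 and 0.04 over all genes. *Atf4* itself had normalized TPM of 435 and 391 at 0 h and of 177 and 147 at 72 h, a log2 change of −1.35 ± 0.28 (SE, limma adjusted p = 0.0071). *Nupr1*, which encodes a small stress-induced chromatin protein, had normalized TPM of 40.8 and 44.2 at 0 h and of 2.85 and 1.24 at 72 h, and its log2 change of −3.88 ± 0.42 (SE, limma adjusted p = 4.3e-05) was the largest of the list. *Chac1*, which encodes an enzyme that degrades glutathione, had normalized TPM of 42.7 and 46.2 at 0 h and of 6.47 and 2.77 at 72 h, a log2 change of −3.10 ± 0.39 (SE, limma adjusted p = 0.00019). In all 3 genes both treated libraries lay below both untreated libraries, as they did in 55.3% of all genes, and in 12.9% both lay above. *Trib3*, which encodes a pseudokinase that restrains ATF4 and AKT, had normalized TPM of 42.8 and 52.1 at 0 h and of 7.59 and 4.55 at 72 h, a log2 change of −2.80 ± 0.40 (SE, limma adjusted p = 0.00048). *Ddit3*, which encodes the stress factor CHOP and overlaps *Mars* on the other strand, had normalized TPM of 16.6 and 21.2 at 0 h and of 6.88 and 6.03 at 72 h, a log2 change of −1.41 ± 0.38 (SE, limma adjusted p = 0.027). The groups did not overlap in either gene. *Asns*, the asparagine synthetase gene and a classical ATF4 target, did not pass the test, with normalized TPM of 604 and 549 at 0 h and of 383 and 343 at 72 h and a log2 change of −0.67 ± 0.26 (SE, limma adjusted p = 0.11). *Asns* was called lower only with the replicate block (adjusted p = 0.025).

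The promoters of *Nupr1* and *Chac1* are printed because they hold TGATGCAA, an 8-base form of the C/EBP-ATF response element to which ATF4 binds with C/EBP partners. Both genes were chosen for printing after their values were seen. The stretches are the 250 bases before the annotated start, read 5′ to 3′ on the gene's strand from RefSeq sequences of GRCm38.p6, at chr7:126625471-126625720 on the minus strand for *Nupr1* and at chr2:119350992-119351241 on the plus strand for *Chac1*. Capitals mark the motif, which stands as its reverse complement TTGCATCA in both.
Nupr1: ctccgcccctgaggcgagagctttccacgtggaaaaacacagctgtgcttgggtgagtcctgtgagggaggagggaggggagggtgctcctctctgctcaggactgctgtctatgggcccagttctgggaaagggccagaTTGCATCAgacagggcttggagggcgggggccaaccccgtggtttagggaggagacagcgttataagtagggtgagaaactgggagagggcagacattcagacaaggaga
Chac1: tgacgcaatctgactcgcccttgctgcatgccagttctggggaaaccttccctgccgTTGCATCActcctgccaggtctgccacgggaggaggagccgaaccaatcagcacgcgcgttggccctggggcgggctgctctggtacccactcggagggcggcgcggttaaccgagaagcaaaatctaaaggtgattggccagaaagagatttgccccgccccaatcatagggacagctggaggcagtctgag
The motif begins 110 bases before the start in *Nupr1* and 193 bases before it in *Chac1*, and the *Nupr1* stretch also holds CACGTG, left in lower case, which does not overlap it. Over windows from 250 bases before to 50 bases after the start, and counting both strands, TGATGCAA occurs in 0.895% of the 32851 promoters of the table, in 0.724% of the tested genes that have a promoter in it and in 6 of the 20 genes of the ATF4 list. A match describes these letters and is not a measured binding site.

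Some enzymes of serine, one-carbon and nucleotide synthesis and some amino acid transporters fell as well. Of 29 synthesis genes 13 fell and 0 rose (24 and 0 with the replicate block), with a median log2 change of −0.83 in normalized TPM and −0.40 in plain TPM. *Mthfd2*, which encodes a mitochondrial folate enzyme that feeds purine synthesis, had normalized TPM of 197 and 222 at 0 h and of 31.5 and 24.3 at 72 h, a log2 change of −2.87 ± 0.29 (SE, limma adjusted p = 3.7e-05). The enzymes of the serine pathway followed in the order of size. *Psat1* had normalized TPM of 432 and 514 at 0 h and of 88.6 and 66.5 at 72 h, a log2 change of −2.60 ± 0.33 (SE, limma adjusted p = 0.00019). *Phgdh*, which encodes the first enzyme of the pathway, had normalized TPM of 193 and 209 at 0 h and of 53.5 and 39.1 at 72 h, a log2 change of −2.11 ± 0.26 (SE, limma adjusted p = 0.00017). The groups did not overlap in these 3 genes. *Shmt2*, which overlaps *Ndufa4l2* on the other strand and encodes the mitochondrial enzyme that moves a carbon from serine to folate, had normalized TPM of 366 and 375 at 0 h and of 188 and 116 at 72 h, a log2 change of −1.32 ± 0.28 (SE, limma adjusted p = 0.0088). *Rrm2*, which encodes the small subunit of the enzyme that makes deoxynucleotides, had normalized TPM of 617 and 568 at 0 h and of 194 and 147 at 72 h, a log2 change of −1.80 ± 0.28 (SE, limma adjusted p = 0.0011). *Cad*, which encodes the enzyme that starts pyrimidine synthesis, did not pass the test, with normalized TPM of 215 and 250.1 at 0 h and of 159 and 141 at 72 h and a log2 change of −0.63 ± 0.30 (SE, limma adjusted p = 0.19). *Cad* was called lower only with the replicate block (adjusted p = 0.03).

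Of 16 amino acid transporter genes 8 fell and 0 rose, with a median log2 change of −0.88 in normalized TPM and −0.45 in plain TPM. The largest fall was that of *Slc6a9*, a glycine transporter gene that overlaps *B4galt2* on the other strand, with normalized TPM of 6.16 and 7.97 at 0 h and of 1.37 and 0.801 at 72 h and a log2 change of −1.95 ± 0.37 (SE, limma adjusted p = 0.004). *Slc1a5*, which encodes a glutamine importer, had normalized TPM of 90.4 and 79.02 at 0 h and of 30.2 and 24.7 at 72 h, a log2 change of −1.60 ± 0.29 (SE, limma adjusted p = 0.0032). *Slc7a5* encodes the large neutral amino acid transporter that works with the *Slc3a2* product. *Slc7a5* had normalized TPM of 216 and 241 at 0 h and of 113 and 92.6 at 72 h, a log2 change of −1.15 ± 0.29 (SE, limma adjusted p = 0.02). Both treated libraries lay below both untreated libraries in these 3 genes. Of 10 genes of polyamine synthesis 3 fell and 0 rose (7 and 0 with the replicate block), and *Oaz1*, which encodes the antizyme that targets ornithine decarboxylase for breakdown, had the largest fall, from normalized TPM of 639.6 and 816 to 289.8 and 305 and by a log2 change of −1.28 ± 0.30 (SE, limma adjusted p = 0.015).

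Of 37 aminoacyl-tRNA synthetase genes 13 fell and 0 rose (21 and 0 with the replicate block, 17 and 3 in plain TPM). The 13 were all among the 20 genes whose symbols do not end in 2, most of which encode the enzymes of the cytosol, and the median log2 change of these 20 was −0.97 in normalized TPM and −0.54 in plain TPM. Of the 17 genes of mitochondrial enzymes, whose symbols end in 2, 0 were called by limma, 4 were lower at an unadjusted p under 0.05 and 4 were called lower with the replicate block, and their median was −0.30 in normalized TPM and 0.11 in plain TPM. *Nars*, the asparaginyl-tRNA synthetase gene, had the largest fall, with normalized TPM of 512 and 578 at 0 h and of 187 and 131 at 72 h and a log2 change of −1.79 ± 0.29 (SE, limma adjusted p = 0.0015). Over the 5 lists of amino acid genes, 50 of 112 genes were called, all lower, and 50 of these remained called with the replicate block and 49 in plain TPM. Of the 50, 23 without 0 h replicate 1, 13 without 0 h replicate 2, 26 without 72 h replicate 1 and 7 without 72 h replicate 2 remained called.

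Genes of mitochondrial ribosomal proteins held many calls and those of cytosolic ones few, and the lists were not tested against each other. Of 78 genes of mitochondrial ribosomal proteins 28 fell and 0 rose (60 and 0 with the replicate block), with a median log2 change of −0.82 in normalized TPM and −0.39 in plain TPM. Of 81 genes of cytosolic ribosomal proteins 1 fell and 0 rose (7 and 0 with the replicate block, 1 and 6 in plain TPM), and their median was −0.31 in normalized TPM and 0.12 in plain TPM, close to that of all genes on both scales. *Mrpl36*, which had the largest fall of the mitochondrial list and overlaps *Ndufs6* on the other strand, had normalized TPM of 135 and 146 at 0 h and of 46.7 and 39.2 at 72 h, a log2 change of −1.69 ± 0.28 (SE, limma adjusted p = 0.0017). *Rps27l* was the cytosolic gene that fell, with normalized TPM of 880.3 and 999 at 0 h and of 397 and 340.5 at 72 h and a log2 change of −1.35 ± 0.30 (SE, limma adjusted p = 0.01). It encodes a paralog of the ribosomal protein of *Rps27* and is known as a p53 target. *Rplp0*, which encodes a stalk protein of the large subunit, had normalized TPM of 2589.9 and 3147 at 0 h and of 2063 and 1965 at 72 h, a log2 change of −0.50 ± 0.31 (SE, limma adjusted p = 0.32). Only *Rps27l* of these last 2 genes passed the test, and ribosomal protein genes share reads with many processed pseudogenes, so their levels are less certain than those of single-copy genes.

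Some genes of ribosome assembly fell, and 1 translation factor gene rose. Of 63 genes of ribosome biogenesis and RNA polymerase I 15 fell and 0 rose (41 and 0 with the replicate block), with a median log2 change of −0.68 in normalized TPM and −0.25 in plain TPM. *Nop16*, which encodes a nucleolar protein of large subunit assembly, had normalized TPM of 124 and 131 at 0 h and of 56.5 and 37.5 at 72 h, a log2 change of −1.45 ± 0.30 (SE, limma adjusted p = 0.0066). *Ncl*, the gene of nucleolin, did not pass the test, with normalized TPM of 1761 and 1665 at 0 h and of 1074 and 811 at 72 h and a log2 change of −0.87 ± 0.28 (SE, limma adjusted p = 0.0544). *Ncl* was called lower with the replicate block (adjusted p = 0.0099) and in plain TPM. Of 51 translation factor genes 10 fell and 1 rose (32 and 2 with the replicate block, 18 and 5 in plain TPM). *Eif4ebp1*, which encodes the repressor of cap-dependent translation that mTOR phosphorylates and is also an ATF4 target, had normalized TPM of 305 and 292 at 0 h and of 160.01 and 106 at 72 h, a log2 change of −1.19 ± 0.27 (SE, limma adjusted p = 0.013). *Eif4g3*, which encodes a scaffold of the cap-binding complex, had normalized TPM of 7.51 and 9.66 at 0 h and of 52.7 and 46.3 at 72 h, a log2 change of 2.40 ± 0.37 (SE, limma adjusted p = 0.00093). *Eif4g3* was thus 5.77 times as high at 72 h as at 0 h by the group means, and its groups did not overlap. *Eef1d*, which overlaps *Naprt* on the same strand, had the largest fall of the list, from normalized TPM of 842 and 935 to 446 and 289 and by a log2 change of −1.30 ± 0.30 (SE, limma adjusted p = 0.013).

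Some chaperone and proteasome genes fell. Of 40 proteasome subunit genes 18 fell and 0 rose (35 and 0 with the replicate block), with a median log2 change of −0.87 in normalized TPM and −0.44 in plain TPM, and of 22 chaperone genes 9 fell and 0 rose (18 and 0 with the replicate block), with a median of −0.89 in normalized TPM and −0.46 in plain TPM. The largest falls were those of *Psmb10*, an immunoproteasome subunit gene, from normalized TPM of 43.8 and 55.99 to 21.1 and 15.6 and by a log2 change of −1.40 ± 0.36 (SE, limma adjusted p = 0.022), and of *Hspa1b*, one of 2 nearly identical inducible HSP70 genes whose reads cannot be told apart with certainty. *Hspa1b* had normalized TPM of 10.8 and 12.3 at 0 h and of 2.87 and 2.05 at 72 h, a log2 change of −1.87 ± 0.34 (SE, limma adjusted p = 0.0037). The untreated and treated libraries of both genes did not overlap. Of 18 genes of the unfolded protein response of the endoplasmic reticulum 1 fell and 0 rose (12 and 0 with the replicate block, 1 and 1 in plain TPM). *Manf*, a secreted stress factor gene, was the one that fell, from normalized TPM of 228 and 278 to 152 and 128 and by a log2 change of −0.85 ± 0.26 (SE, limma adjusted p = 0.0464), and it was not called in plain TPM (−0.42). Over the 7 lists of translation, folding and protein breakdown, 83 of 353 genes were called, 82 of them lower, and 7 without 0 h replicate 1, 2 without 0 h replicate 2, 36 without 72 h replicate 1 and 1 without 72 h replicate 2 remained called. All 83 were called with the replicate block and 78 in plain TPM.

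Some genes of glycolysis and of the respiratory chain fell, and most did not pass the test. Of 33 entries tested for glycolysis and HIF targets 14 fell and 0 rose (22 and 1 with the replicate block, 17 and 2 in plain TPM), with a median log2 change of −0.87 in normalized TPM and −0.45 in plain TPM. *Ldha*, which encodes the lactate dehydrogenase subunit that makes lactate, had normalized TPM of 2092 and 2464 at 0 h and of 496 and 304 at 72 h, a log2 change of −2.54 ± 0.32 (SE, limma adjusted p = 0.00017). *Tpi1*, the triosephosphate isomerase gene, had normalized TPM of 432 and 504 at 0 h and of 106 and 66.4 at 72 h, a log2 change of −2.46 ± 0.34 (SE, limma adjusted p = 0.00039). *Slc2a1*, the glucose transporter gene, had normalized TPM of 276 and 323 at 0 h and of 119.8 and 107 at 72 h, a log2 change of −1.39 ± 0.29 (SE, limma adjusted p = 0.0083). In each the 2 treated libraries lay below the untreated libraries. *Hk2*, which encodes the hexokinase that traps glucose, did not pass the test, with normalized TPM of 333 and 323 at 0 h and of 295 and 222 at 72 h and a log2 change of −0.35 ± 0.25 (SE, limma adjusted p = 0.39) (0.07 in plain TPM). *Pdk1*, which encodes the kinase that closes the entry of pyruvate into mitochondria, had a log2 change of 0.62 ± 0.29 (SE, limma adjusted p = 0.19) and was called higher in plain TPM (1.04) and with the replicate block (adjusted p = 0.032). *Slc16a3*, a lactate exporter gene outside this list, had normalized TPM of 49.02 and 50.04 at 0 h and of 36.7 and 24.2 at 72 h and a log2 change of −0.71 ± 0.30 (SE, limma adjusted p = 0.14). *Slc16a3* was called lower with the replicate block (adjusted p = 0.026).

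Of 77 nuclear genes of the respiratory chain 18 fell and 0 rose (56 and 0 with the replicate block), with a median log2 change of −0.76 in normalized TPM and −0.33 in plain TPM. *Atp5g1*, which encodes a proton-carrying ring subunit of ATP synthase, had the largest fall, with normalized TPM of 628 and 538 at 0 h and of 236 and 149 at 72 h and a log2 change of −1.63 ± 0.27 (SE, limma adjusted p = 0.0016). Of 13 mRNAs of the mitochondrial genome 1 fell (3 with the replicate block), which was *mt-Nd6*, the one on the light strand, with normalized TPM of 1725 and 1705 at 0 h and of 648 and 561 at 72 h and a log2 change of −1.51 ± 0.32 (SE, limma adjusted p = 0.0079). It overlaps *mt-Nd5* on the other strand. *mt-Co1*, on the heavy strand, had normalized TPM of 19395 and 22359 at 0 h and of 15355 and 13951 at 72 h and a log2 change of −0.51 ± 0.35 (SE, limma adjusted p = 0.38), and the 2 mitochondrial genes were not tested against each other.

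Some genes of fatty acid and cholesterol synthesis fell. Of 12 genes of fatty acid synthesis 6 fell and 0 rose (7 and 1 in plain TPM), with a median log2 change of −0.88 in normalized TPM and −0.45 in plain TPM. *Scd1*, a stearoyl-CoA desaturase gene, had normalized TPM of 88.9 and 54.6 at 0 h and of 7.38 and 6.10 at 72 h, a log2 change of −3.20 ± 0.33 (SE, limma adjusted p = 3.7e-05). *Scd2*, the desaturase gene with the higher level in these cells, had normalized TPM of 484 and 361 at 0 h and of 145 and 92.9 at 72 h, a log2 change of −1.84 ± 0.28 (SE, limma adjusted p = 0.00094). *Fasn*, the fatty acid synthase gene, did not pass the test, with normalized TPM of 309.7 and 281 at 0 h and of 207 and 162 at 72 h and a log2 change of −0.68 ± 0.26 (SE, limma adjusted p = 0.11). *Fasn* was called lower with the replicate block (adjusted p = 0.017). Both desaturase genes had treated libraries far below the untreated ones, with 0 h replicate 1 the highest of the 4. Of 23 genes of cholesterol synthesis and uptake 9 fell and 0 rose (19 and 0 with the replicate block), with a median of −0.86 in normalized TPM and −0.43 in plain TPM. *Dhcr7*, which encodes the last enzyme of cholesterol synthesis, had normalized TPM of 48.1 and 69.1 at 0 h and of 17.04 and 15.1 at 72 h, a log2 change of −1.78 ± 0.33 (SE, limma adjusted p = 0.004). *Idi1*, which encodes the isomerase of isoprene units, had normalized TPM of 71.7 and 94.4 at 0 h and of 24.2 and 25.5 at 72 h, a log2 change of −1.69 ± 0.32 (SE, limma adjusted p = 0.0044).

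Genes of fatty acid breakdown were called lower at 8.70%, near the 7.6% of all genes. Of 23 genes of the carnitine shuttle and fatty acid oxidation 2 fell and 0 rose (8 and 0 with the replicate block, 4 and 3 in plain TPM). *Cpt1a*, which encodes the enzyme that admits fatty acids to mitochondria, had normalized TPM of 36.4 and 28.2 at 0 h and of 52.7 and 49.4 at 72 h and a log2 change of 0.65 ± 0.34 (SE, limma adjusted p = 0.23). *Cpt1a* was called higher in plain TPM (1.05) but not with the replicate block. Of 13 antioxidant genes under NRF2 3 fell and 0 rose (8 and 0 with the replicate block). *Hmox1*, the heme oxygenase gene, had normalized TPM of 178 and 317 at 0 h and of 39.995 and 33.2 at 72 h, a log2 change of −2.67 ± 0.37 (SE, limma adjusted p = 0.00038). The treated libraries lay below the untreated ones, and 0 h replicate 2 was the highest. Over the 7 lists of energy, lipid and antioxidant genes, 53 of 194 genes were called, all lower, and 17 without 0 h replicate 1, 10 without 0 h replicate 2, 27 without 72 h replicate 1 and 4 without 72 h replicate 2 remained called. All 53 were called with the replicate block and 49 in plain TPM.

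*Mtor* itself was not called in normalized TPM, and 12.5% of its list fell, beside 7.6% of all genes. Of 40 genes of the mTOR complexes and of amino acid sensing 5 fell and 0 rose (11 and 0 with the replicate block, 8 and 8 in plain TPM), and the median log2 change was −0.26 in normalized TPM and 0.15 in plain TPM, near that of all genes. *Mtor* had normalized TPM of 59.9 and 59.3 at 0 h and of 74.97 and 62.5 at 72 h and a log2 change of 0.20 ± 0.29 (SE, limma adjusted p = 0.71). *Mtor* was called higher in plain TPM (0.61). Of the 5 that fell, some are negative regulators of mTORC1 or ATF4 targets and others are not. *Ddit4*, which encodes the stress-induced mTORC1 inhibitor REDD1, had normalized TPM of 37.8 and 88.1 at 0 h and of 6.67 and 4.93 at 72 h, a log2 change of −3.12 ± 0.49 (SE, limma adjusted p = 0.0011). *Sesn2*, which encodes a leucine sensor, had normalized TPM of 122 and 151 at 0 h and of 52.97 and 47.9 at 72 h, a log2 change of −1.41 ± 0.32 (SE, limma adjusted p = 0.013). The groups did not overlap in either gene. The other 3 were *Castor1*, which encodes an arginine sensor (−1.54), *Lamtor4* of the lysosomal scaffold (−1.09) and *Sec13* of the GATOR2 complex (−0.95).

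The insulin and PI3K branch held calls in both directions. Of its 24 genes 3 fell and 3 rose (5 and 7 with the replicate block, 4 and 12 in plain TPM), where 0.697% of all genes rose, and the median log2 change was 0.05 in normalized TPM and 0.44 in plain TPM. FOXO factors enter the nucleus when AKT is inactive and are known to raise receptors and adaptors of insulin. *Crebrf*, which encodes a regulator of the ER stress factor CREB3 and has been described as a FOXO target, had normalized TPM of 14.9 and 19.5 at 0 h and of 57.9 and 57.3 at 72 h, a log2 change of 1.70 ± 0.31 (SE, limma adjusted p = 0.0033). *Klhl24*, which encodes a ubiquitin ligase adaptor, had normalized TPM of 22.1 and 30.4 at 0 h and of 83.9 and 81.6 at 72 h, a log2 change of 1.63 ± 0.31 (SE, limma adjusted p = 0.0045). *Irs1*, which encodes an insulin receptor substrate, had normalized TPM of 0.492 and 0.771 at 0 h and of 2.62 and 2.82 at 72 h, a log2 change of 1.19 ± 0.37 (SE, limma adjusted p = 0.0496). In these 3 genes both treated libraries lay above both untreated libraries, at a low level for *Irs1*. The receptor genes did not pass the test. *Igf1r* had normalized TPM of 12.9 and 10.2 at 0 h and of 25.6 and 22.8 at 72 h and a log2 change of 1.01 ± 0.33 (SE, limma adjusted p = 0.061). *Igf1r* was called higher in plain TPM (1.35) and with the replicate block (adjusted p = 0.0022). *Insr* had normalized TPM of 7.62 and 10.7 at 0 h and of 13.8 and 15.8 at 72 h and a log2 change of 0.65 ± 0.38 (SE, limma adjusted p = 0.3). *Insr* was called higher in plain TPM (0.98) and with the replicate block (adjusted p = 0.036). *Akt1*, the kinase gene, had the largest fall, with normalized TPM of 35.9 and 66.7 at 0 h and of 20.04 and 18.5 at 72 h and a log2 change of −1.31 ± 0.38 (SE, limma adjusted p = 0.039), and 0 h replicate 2 was the highest of its libraries.

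The median of the lysosome genes lay near that of all genes, and the gene of one of their regulators fell. Of 9 genes of the TFE3 family and the folliculin axis 1 fell (1 lower and 1 higher in plain TPM), *Tfeb*, with normalized TPM of 52.5 and 44.9 at 0 h and of 20.6 and 17.5 at 72 h and a log2 change of −1.31 ± 0.32 (SE, limma adjusted p = 0.017). *Tfe3* had normalized TPM of 82.97 and 99.8 at 0 h and of 93.2 and 68.05 at 72 h and a log2 change of −0.19 ± 0.29 (SE, limma adjusted p = 0.73) (0.23 in plain TPM). Of 59 lysosome and V-ATPase genes 0 were called by limma, 10 were lower and 0 higher at an unadjusted p under 0.05, and 12 were called lower and 1 higher with the replicate block. The median log2 change was −0.25 in normalized TPM and 0.15 in plain TPM. In plain TPM 5 were called lower and 12 higher. *Mcoln1*, which encodes a lysosomal calcium channel and is a known TFEB target, had normalized TPM of 31.5 and 32.3 at 0 h and of 50.9 and 49.6 at 72 h and a log2 change of 0.64 ± 0.35 (SE, limma adjusted p = 0.26). *Mcoln1* was called higher in plain TPM (1.03) and with the replicate block (adjusted p = 0.044). *Lamp1*, which encodes an abundant membrane protein of lysosomes, had normalized TPM of 410.2 and 465 at 0 h and of 353 and 322 at 72 h and a log2 change of −0.37 ± 0.32 (SE, limma adjusted p = 0.5) (0.05 in plain TPM).

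Of 44 autophagy genes 2 fell and 1 rose (11 and 4 with the replicate block, 7 and 7 in plain TPM), with a median log2 change of −0.39 in normalized TPM and 0.02 in plain TPM. *Calcoco2*, which encodes the receptor NDP52 that delivers bacteria and mitochondria to autophagosomes, had normalized TPM of 429.6 and 557 at 0 h and of 13.2 and 44.6 at 72 h. Its log2 change of −4.27 ± 0.48 (SE, limma adjusted p = 7.1e-05) was the largest fall of any gene that met the conditions for naming, and it stood at 0.0585 times its untreated level by the group means. *Optn*, which encodes another such receptor, had normalized TPM of 10.4 and 5.85 at 0 h and of 25.3 and 14.1 at 72 h, a log2 change of 1.17 ± 0.35 (SE, limma adjusted p = 0.044). *Sqstm1*, which encodes the receptor p62, had normalized TPM of 182 and 182 at 0 h and of 119.7 and 96.8 at 72 h and a log2 change of −0.75 ± 0.29 (SE, limma adjusted p = 0.11). *Sqstm1* was called lower in plain TPM (−0.32) and with the replicate block (adjusted p = 0.017). Of these receptor genes the first fell, the second rose and the third did not pass the test. Over the 5 lists of signalling and catabolism, 15 of 174 genes were called, and 6 without 0 h replicate 1, 4 without 0 h replicate 2, 5 without 72 h replicate 1 and 2 without 72 h replicate 2 remained called. All 15 were called with the replicate block and in plain TPM. For comparison, 7.6% of all genes were called lower and 0.697% higher.

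The promoters of *Crebrf* and *Irs1* are printed because, of the genes called in the FOXO, folliculin, lysosome and autophagy lists that rose, these hold a motif searched for. The motifs were CACGTG, the E-box core bound by TFE3 and many other factors, the longer CLEAR element that contains it, and GTAAACA, the forkhead site. Of the 4 that rose, *Klhl24* had no promoter in the table and *Optn* held none of them. The stretches are the 250 bases before the start on the gene's strand, from RefSeq sequences of GRCm38.p6, at chr17:26715400-26715649 on the plus strand for *Crebrf* and at chr1:82291440-82291689 on the minus strand for *Irs1*, with CACGTG in capitals.
Crebrf: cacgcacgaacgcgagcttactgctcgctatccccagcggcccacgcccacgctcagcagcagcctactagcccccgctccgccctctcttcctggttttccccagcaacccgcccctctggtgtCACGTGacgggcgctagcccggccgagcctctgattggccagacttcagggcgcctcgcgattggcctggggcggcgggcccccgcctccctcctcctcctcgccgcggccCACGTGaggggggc
Irs1: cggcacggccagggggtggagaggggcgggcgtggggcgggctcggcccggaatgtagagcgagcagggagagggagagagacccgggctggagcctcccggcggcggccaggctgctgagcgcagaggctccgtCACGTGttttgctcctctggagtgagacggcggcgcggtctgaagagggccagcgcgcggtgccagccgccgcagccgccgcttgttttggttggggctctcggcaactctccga
CACGTG begins 125 and 14 bases before the start of *Crebrf* and 115 bases before that of *Irs1*. The first of the *Crebrf* matches lies within a CLEAR element, which occurs in 0.326% of the 32851 promoters and in 1 of the 44 lysosome genes with a promoter. Over windows from 250 bases before to 50 bases after the start CACGTG occurs in 7.15% of these promoters. It occurs in 11.8% of the tested genes with a promoter, in 15.6% of the 90 such genes called higher and in 11.3% of the 968 called lower. Of the 44 lysosome genes with a promoter 18 hold it (40.9%), and 0 of the lysosome genes passed the test without the block.

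The share that fell was 11.6% in DNA replication, 7.69% in mitosis and 19.4% in G1 phase, beside 7.6% of all genes. Of 43 genes of DNA replication 5 fell and 0 rose (27 and 0 with the replicate block, 11 and 2 in plain TPM), with a median log2 change of −0.66 in normalized TPM and −0.23 in plain TPM. *Cdc6*, which encodes a factor that loads the MCM helicase onto origins, had normalized TPM of 94.2 and 91.7 at 0 h and of 43.2 and 32.2 at 72 h, a log2 change of −1.29 ± 0.29 (SE, limma adjusted p = 0.013). *Pcna*, the sliding clamp gene, had normalized TPM of 802 and 719 at 0 h and of 435 and 304 at 72 h, a log2 change of −1.06 ± 0.27 (SE, limma adjusted p = 0.022). The groups did not overlap in either gene. Of 39 mitosis genes 3 fell and 0 rose (17 and 0 with the replicate block, 8 and 4 in plain TPM). *Aurka*, the Aurora A kinase gene, had normalized TPM of 261 and 251 at 0 h and of 125 and 98.9 at 72 h, a log2 change of −1.20 ± 0.28 (SE, limma adjusted p = 0.015). *Pttg1*, the securin gene, had the largest fall of the list, from normalized TPM of 87.3 and 54.97 to 25.01 and 27.4 and by a log2 change of −1.37 ± 0.30 (SE, limma adjusted p = 0.011). *Mki67*, the gene of the proliferation antigen Ki-67, had normalized TPM of 241 and 197 at 0 h and of 219 and 188 at 72 h and a log2 change of −0.11 ± 0.27 (SE, limma adjusted p = 0.85) (0.32 in plain TPM), and its groups overlapped.

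Among the 31 genes of G1 phase 6 fell and 0 rose (11 and 1 with the replicate block, 6 and 5 in plain TPM). *Ccne1*, the cyclin E1 gene, had normalized TPM of 392 and 366 at 0 h and of 133 and 85.8 at 72 h, a log2 change of −1.82 ± 0.27 (SE, limma adjusted p = 0.00071). *Ccnd3*, a D-type cyclin gene that overlaps *Bysl* on the other strand, had normalized TPM of 427 and 341 at 0 h and of 129.5 and 116 at 72 h, a log2 change of −1.63 ± 0.27 (SE, limma adjusted p = 0.0015). *Ccnd2* had normalized TPM of 16.4 and 20.04 at 0 h and of 7.67 and 5.56 at 72 h, a log2 change of −1.34 ± 0.34 (SE, limma adjusted p = 0.02). In these 3 cyclin genes the treated libraries all lay below the untreated ones. The CDK inhibitor gene *Cdkn1a* had normalized TPM of 43.2 and 59.6 at 0 h and of 25.8 and 25.3 at 72 h and a log2 change of −0.96 ± 0.40 (SE, limma adjusted p = 0.13). *Cdkn1a* was called lower with the replicate block (adjusted p = 0.0088). *Cdkn1b* had normalized TPM of 18.03 and 21.1 at 0 h and of 26.6 and 28.8 at 72 h and a log2 change of 0.48 ± 0.35 (SE, limma adjusted p = 0.41). *Cdkn1b* was called higher in plain TPM (0.86). *Myc*, whose product drives growth genes, had normalized TPM of 161 and 153 at 0 h and of 279 and 155 at 72 h and a log2 change of 0.40 ± 0.27 (SE, limma adjusted p = 0.37), with 72 h replicate 1 above the other libraries. Of 70 replication-dependent histone genes 11 fell and 0 rose (31 and 0 with the replicate block), and these are near-identical multicopy genes whose reads could be split among copies.

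Of 14 genes of the BCL2 family 2 fell and 1 rose (5 and 2 with the replicate block, 2 and 3 in plain TPM). *Bmf*, which encodes a pro-apoptotic protein with only the BH3 motif, had normalized TPM of 11.3 and 13.2 at 0 h and of 44.1 and 44.4 at 72 h, a log2 change of 1.78 ± 0.33 (SE, limma adjusted p = 0.0035). The pore-forming *Bak1* had normalized TPM of 106 and 84.1 at 0 h and of 49.99 and 36.05 at 72 h, a log2 change of −1.13 ± 0.29 (SE, limma adjusted p = 0.022). *Bad*, another BH3-only gene, which overlaps *Gpr137* on the other strand, had normalized TPM of 20.7 and 23.2 at 0 h and of 8.79 and 7.65 at 72 h, a log2 change of −1.32 ± 0.35 (SE, limma adjusted p = 0.027). The 3 called members all promote cell death, and *Bmf* rose while *Bak1* and *Bad* fell. The survival gene *Bcl2l1* had normalized TPM of 63.5 and 70.01 at 0 h and of 41.1 and 45.6 at 72 h and a log2 change of −0.61 ± 0.29 (SE, limma adjusted p = 0.19). *Bcl2l1* was called lower with the replicate block (adjusted p = 0.032). Over the 6 lists of proliferation and cell death, 29 of 209 genes were called, 28 of them lower, and 5 without 0 h replicate 1, 5 without 0 h replicate 2, 13 without 72 h replicate 1 and 1 without 72 h replicate 2 remained called. All 29 were called with the replicate block and 28 in plain TPM. For comparison, 7.6% of all genes were called lower and 0.697% higher.

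Of 27 genes of core and naive pluripotency 1 fell and 0 rose (4 and 1 with the replicate block, 1 and 5 in plain TPM), with a median log2 change of −0.19 in normalized TPM and 0.23 in plain TPM. *Nanog* was the gene that fell, with normalized TPM of 680.3 and 727 at 0 h and of 255 and 319 at 72 h and a log2 change of −1.30 ± 0.34 (SE, limma adjusted p = 0.026). *Pou5f1* had normalized TPM of 2085 and 2085 at 0 h and of 1697 and 1325 at 72 h and a log2 change of −0.48 ± 0.27 (SE, limma adjusted p = 0.29), close to that of all genes on both scales (−0.05 in plain TPM). *Klf4* had normalized TPM of 140.2 and 151 at 0 h and of 242 and 237 at 72 h and a log2 change of 0.72 ± 0.37 (SE, limma adjusted p = 0.22). *Klf4* was called higher in plain TPM (1.14) and with the replicate block (adjusted p = 0.02). Both treated libraries were thus lower than the untreated ones for *Nanog* and *Pou5f1* and higher for *Klf4*. *Dppa3*, which encodes a maternal factor that protects against DNA methylation, had normalized TPM of 15.5 and 60.6 at 0 h and of 3.49 and 5.40 at 72 h and a log2 change of −2.57 ± 0.83 (SE, limma adjusted p = 0.059), with 0 h replicate 2 far above replicate 1. *Dppa3* was called lower with the replicate block (adjusted p = 0.0023).

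Of 15 formative and primed genes 0 fell and 1 rose (1 and 3 with the replicate block). *Otx2*, a factor of the exit from naive pluripotency, had normalized TPM of 20.6 and 16.5 at 0 h and of 46.1 and 43.6 at 72 h, a log2 change of 1.24 ± 0.30 (SE, limma adjusted p = 0.017). Of 16 feedback genes of FGF and ERK signalling 0 fell and 2 rose (4 and 2 with the replicate block, 1 and 6 in plain TPM). *Dusp4*, which encodes a phosphatase of ERK, had normalized TPM of 18.99 and 20.95 at 0 h and of 50.6 and 41.9 at 72 h, a log2 change of 1.17 ± 0.28 (SE, limma adjusted p = 0.017). *Spry1*, which encodes a feedback inhibitor of receptor tyrosine kinases, had normalized TPM of 15.5 and 13.6 at 0 h and of 33.3 and 28.3 at 72 h, a log2 change of 1.03 ± 0.31 (SE, limma adjusted p = 0.0476). All 3 genes were higher in both treated libraries. Among 13 WNT targets and TCF factors 1 fell and 1 rose (2 and 2 with the replicate block, 1 and 2 in plain TPM). *Axin2*, a direct target gene of WNT signalling, had normalized TPM of 23.3 and 15.1 at 0 h and of 63.2 and 40.7 at 72 h, a log2 change of 1.39 ± 0.31 (SE, limma adjusted p = 0.011). *Tcf7l1*, which encodes a repressor of WNT targets, had normalized TPM of 82.001 and 78.9 at 0 h and of 36.2 and 35.2 at 72 h, a log2 change of −1.15 ± 0.32 (SE, limma adjusted p = 0.031). The groups of the target and of the repressor moved in opposite directions without overlap.

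The share of lineage markers that fell was 11.1% in primitive endoderm, 10% in trophectoderm and 16.7% in neuroectoderm, from few genes each, beside 7.6% of all genes. With the replicate block 6 trophectoderm genes were called lower, and 3 neuroectoderm genes lower and 1 higher. In plain TPM 0 trophectoderm genes were called, and 3 neuroectoderm genes lower and 1 higher. Of 18 primitive endoderm genes 2 fell and 0 rose (4 and 0 with the replicate block), the fallen being the extracellular matrix genes *Sparc* and *Col4a1*. Only 1 of these 2 was called lower in plain TPM. *Sparc* had normalized TPM of 357 and 396 at 0 h and of 186 and 193 at 72 h, a log2 change of −0.98 ± 0.26 (SE, limma adjusted p = 0.023). *Gata6*, which defines this lineage, had normalized TPM of 3.61 and 9.51 at 0 h and of 2.19 and 7.24 at 72 h and a log2 change of −0.44 ± 0.68 (SE, limma adjusted p = 0.73), with replicate 2 above replicate 1 at both times. *Nes*, a neural progenitor marker, fell from normalized TPM of 19.7 and 20.5 to 5.42 and 4.08 by a log2 change of −1.89 ± 0.33 (SE, limma adjusted p = 0.0023), and *Krt8*, a keratin of trophectoderm, from 28.4 and 21.8 to 8.67 and 8.99 by −1.40 ± 0.41 (SE, limma adjusted p = 0.042), which was not called in plain TPM (−0.95). Of 13 genes of LIF signalling 0 were called by limma, and 1 was lower and 1 higher at an unadjusted p under 0.05. In plain TPM 0 were called lower and 6 higher, and with the replicate block 2 lower and 1 higher. Of 13 genes of NODAL and BMP signalling 0 were called (0 lower and 3 higher in plain TPM, 3 and 1 with the replicate block), and 2 were lower and 1 higher at that p. Of 15 genes of the 2-cell-like state and of 3 mesendoderm genes tested 0 were called, and 1 mesendoderm gene was higher at that p. With the replicate block 1 mesendoderm gene was called higher. Over the 11 lists of pluripotency, signalling and lineage, 10 of 141 genes were called, 6 lower and 4 higher, and 2 without 0 h replicate 1, 1 without 0 h replicate 2, 1 without 72 h replicate 1 and 0 without 72 h replicate 2 remained called. All 10 were called with the replicate block and 8 in plain TPM. For comparison, 7.6% of all genes were called lower and 0.697% higher.

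The miR-290 to miR-295 cluster is transcribed as one precursor on chromosome 7 and gives the most abundant miRNAs of mouse ES cells, which speed the passage through G1 and hold pluripotency. Its mature miRNAs are shown by their seeds, bases 2 to 8, which pair with target mRNAs and are in capitals. The sequences are from RefSeq with GRCm38.p6 coordinates, and all 9 genes of the cluster in the files have entries there, with 17 mature sequences in all. Of these, 3 share the seed AAGUGCU.
mmu-miR-291a-3p: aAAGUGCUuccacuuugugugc
mmu-miR-294-3p: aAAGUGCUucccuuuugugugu
mmu-miR-295-3p: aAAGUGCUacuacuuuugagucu
Another 3, from the 5′ arms, share the seed CUCAAAC.
mmu-miR-290a-5p: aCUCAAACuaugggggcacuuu
mmu-miR-292a-5p: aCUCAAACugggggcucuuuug
mmu-miR-293-5p: aCUCAAACugugugacauuuug
The libraries were made from total RNA without selection of small RNAs, so the values below are of reads over the hairpin genes and not of mature miRNAs. The miRNA genes tested span 51 to 164 bp, and TPM of features this short is less certain.

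Of the 7 cluster genes tested 5 rose and 0 fell, and all 7 had both treated libraries above both untreated ones, which holds for 12.9% of all genes. *Mir291a* had normalized TPM of 7.02 and 7.41 at 0 h and of 54.3 and 52.6 at 72 h, a log2 change of 2.73 ± 0.51 (SE, limma adjusted p = 0.004). *Mir294* had normalized TPM of 15.1 and 20.5 at 0 h and of 85.2 and 118 at 72 h, a log2 change of 2.44 ± 0.61 (SE, limma adjusted p = 0.02). *Mir295* had normalized TPM of 24.2 and 23.3 at 0 h and of 98.4 and 128 at 72 h, a log2 change of 2.19 ± 0.51 (SE, limma adjusted p = 0.014). The treated libraries of these 3 genes, which give the miRNAs with the seed AAGUGCU, stood at several times the untreated ones. *Mir292* had normalized TPM of 9.95 and 10.9 at 0 h and of 67.001 and 75.8 at 72 h, a log2 change of 2.66 ± 0.59 (SE, limma adjusted p = 0.011). *Mir291b* had normalized TPM of 87.9 and 84.4 at 0 h and of 275 and 291 at 72 h, a log2 change of 1.70 ± 0.41 (SE, limma adjusted p = 0.017). *Mir293* had normalized TPM of 29.02 and 56.4 at 0 h and of 121 and 185 at 72 h and a log2 change of 1.86 ± 0.63 (SE, limma adjusted p = 0.07). *Mir293* was called higher with the replicate block (adjusted p = 0.00031) and in plain TPM (2.25). *Mir290a* had normalized TPM of 36.02 and 60.7 at 0 h and of 73.1 and 64.9 at 72 h and a log2 change of 0.55 ± 0.42 (SE, limma adjusted p = 0.44). *Mir290a* was called higher in plain TPM (0.95). *Mir291a* and *Mir291b* overlap *Nlrp12* on the other strand. The median log2 change of the cluster was 2.19 in normalized TPM and 2.57 in plain TPM.

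The miRNA genes of 2 other loci were called too, in opposite directions. Of the 482 miRNA genes tested 36 (7.47%) fell and 10 (2.07%) rose, beside 7.6% and 0.697% of all genes. In plain TPM 14 were called lower and 47 higher. *Sfmbt2*, which encodes a Polycomb-related protein, carries a large miRNA array in one intron, and of the 114 miRNA genes tested within it 32 fell. In plain TPM 12 were called lower, where 11.4% of all genes were. The 114 lie within *Sfmbt2* on its strand, so they are 1 locus and not 114 separate results. Both treated libraries lay below both untreated ones in 94 of the 114, which holds for 55.3% of all genes. Their median log2 change was −1.62 in normalized TPM and −1.10 in plain TPM. *Sfmbt2* itself had normalized TPM of 63.9 and 179 at 0 h and of 11.9 and 14.1 at 72 h, a log2 change of −2.95 ± 0.51 (SE, limma adjusted p = 0.0022), with 0 h replicate 2 well above replicate 1. The 48 miRNA genes tested between *Meg3* and *Mirg*, in the imprinted locus of chromosome 12, had a median of 0.64 in normalized TPM and 0.89 in plain TPM. Of these 2 rose, 25 were called higher in plain TPM, and 32 had both treated libraries above both untreated ones. Over all genes these shares were 0.697%, 12.6% and 12.9%. *Meg3*, the long noncoding RNA expressed from the maternal allele, had normalized TPM of 159.9 and 253 at 0 h and of 519.9 and 473 at 72 h, a log2 change of 1.30 ± 0.29 (SE, limma adjusted p = 0.011). *Mirg*, the miRNA host transcript at the other end, had normalized TPM of 85.1 and 116 at 0 h and of 228 and 227 at 72 h, a log2 change of 1.19 ± 0.28 (SE, limma adjusted p = 0.014). *Rian*, which lies between them, had normalized TPM of 652 and 967 at 0 h and of 1477 and 1332 at 72 h and a log2 change of 0.82 ± 0.28 (SE, limma adjusted p = 0.071). *Rian* was called higher with the replicate block (adjusted p = 0.011) and in plain TPM (1.25). All 3 transcripts were higher in both treated libraries. The 313 miRNA genes elsewhere had a median of −0.07 in normalized TPM, with 4 lower and 3 higher calls.

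**Figure D3:**
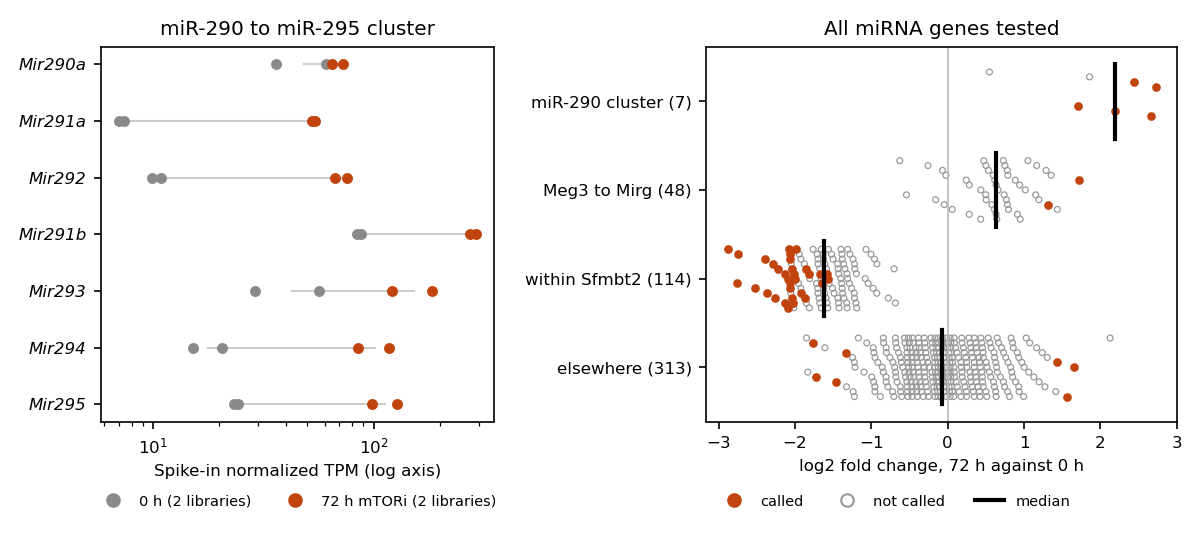
Log2 change of the miRNA genes tested, wild type at 72 h against 0 h, by place in the genome, and normalized TPM of the cluster genes in each library. The median is −1.62 for the 114 genes within Sfmbt2, 0.64 for the 48 between Meg3 and Mirg and 2.19 for the 7 of the miR-290 to miR-295 cluster.

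Imprinted genes held calls in both directions. Of 27 imprinted genes 8 fell and 2 rose (5 and 5 in plain TPM), and the rises were *Meg3* and *Mirg*. The falls and rises were 29.6% and 7.41% of the list, beside 7.6% and 0.697% of all genes. *Igf2*, a growth factor gene expressed from the paternal allele, had normalized TPM of 7.21 and 11.6 at 0 h and of 2.16 and 1.36 at 72 h, a log2 change of −1.89 ± 0.35 (SE, limma adjusted p = 0.0037). *H19*, its maternally expressed neighbour, had normalized TPM of 45.6 and 321 at 0 h and of 13.4 and 31.8 at 72 h, a log2 change of −2.50 ± 0.72 (SE, limma adjusted p = 0.037), which was not called in plain TPM (−2.05) and in which 0 h replicate 2 stood far above replicate 1. *Plagl1*, which encodes a zinc finger factor of an imprinted network, had normalized TPM of 29.4 and 27.9 at 0 h and of 2.89 and 10.04 at 72 h, a log2 change of −2.18 ± 0.42 (SE, limma adjusted p = 0.0045). *Grb10*, which encodes an adaptor that damps insulin signalling and is phosphorylated by mTOR, had normalized TPM of 103 and 86.9 at 0 h and of 36.3 and 17.4 at 72 h, a log2 change of −1.87 ± 0.35 (SE, limma adjusted p = 0.0044). The groups did not overlap in any of these 4 genes.

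Of 15 genes of writers, maintenance and readers 0 were called by limma, 4 were lower at an unadjusted p under 0.05 and 3 were called lower with the replicate block. In plain TPM 1 was called lower and 2 higher. *Uhrf1*, which encodes the protein that brings DNMT1 to replicated DNA, had normalized TPM of 633 and 553 at 0 h and of 379.7 and 292 at 72 h and a log2 change of −0.83 ± 0.26 (SE, limma adjusted p = 0.0516), just outside the threshold, and was one of those called with the block (adjusted p = 0.0085). *Dnmt3b*, which encodes a de novo methyltransferase, had normalized TPM of 276 and 404 at 0 h and of 273 and 186 at 72 h and a log2 change of −0.57 ± 0.29 (SE, limma adjusted p = 0.23). Neither was called in plain TPM. Of 13 genes of TET enzymes and methylcytosine removal 2 fell and 1 rose (2 and 4 in plain TPM). *Gadd45b*, a stress-induced gene linked to demethylation, fell from normalized TPM of 38.2 and 35.6 to 14.2 and 16.1 by a log2 change of −1.23 ± 0.29 (SE, limma adjusted p = 0.015). *Neil2*, which encodes a DNA glycosylase of base excision repair, had normalized TPM of 2.80 and 4.35 at 0 h and of 10.5 and 13.7 at 72 h, a log2 change of 1.53 ± 0.46 (SE, limma adjusted p = 0.044). Of 20 germline genes held silent by DNA methylation 0 were called by limma, 2 were higher at an unadjusted p under 0.05 and 3 were called higher with the replicate block and 5 in plain TPM. The median log2 change was 0.15 in normalized TPM and 0.47 in plain TPM.

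The *Rhox* cluster of the X chromosome holds homeobox genes that are silenced by DNA methylation in several cell types. Of 32 members listed 9 were tested and 3 fell, while in plain TPM 3 were called lower and 2 higher. *Rhox5* had normalized TPM of 524 and 408 at 0 h and of 83.9 and 69.6 at 72 h, a log2 change of −2.58 ± 0.28 (SE, limma adjusted p = 4.3e-05). *Rhox6* had normalized TPM of 11.01 and 14.3 at 0 h and of 3.86 and 3.63 at 72 h, a log2 change of −1.51 ± 0.35 (SE, limma adjusted p = 0.013). *Rhox9* had normalized TPM of 9.65 and 15.6 at 0 h and of 3.91 and 2.91 at 72 h, a log2 change of −1.60 ± 0.37 (SE, limma adjusted p = 0.014). The treated libraries of the 3 genes lay below the untreated ones. In the lists of chromatin regulators, 0 of 27 Polycomb genes (5 at an unadjusted p under 0.05), 1 of 15 genes of H3K9 methylation and 1 of 21 genes of SIN3A and the histone deacetylases fell, and 0 rose in these 3 lists. With the replicate block 7, 4 and 7 were called lower, and 1 of the last list higher. In plain TPM 1, 2 and 1 were called lower and 5, 2 and 5 higher. *Ehmt2*, the gene of the H3K9 methyltransferase G9a, was the one called in its list, with normalized TPM of 178 and 181 at 0 h and of 102 and 85.1 at 72 h and a log2 change of −0.94 ± 0.25 (SE, limma adjusted p = 0.028), and it was not called in plain TPM (−0.51). Of 19 genes of Pol II pausing and elongation 1 fell and 0 rose (6 and 0 with the replicate block, 4 and 1 in plain TPM). Over the 10 lists of DNA methylation, imprinting, chromatin and Pol II pausing, 19 of 170 genes were called, 16 of them lower, and 7 without 0 h replicate 1, 4 without 0 h replicate 2, 5 without 72 h replicate 1 and 2 without 72 h replicate 2 remained called. All 19 were called with the replicate block and 15 in plain TPM. For comparison, 7.6% of all genes were called lower and 0.697% higher.

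Several of the largest changes lay outside the lists. For 12 rises and 12 falls the libraries of the 2 groups did not overlap by the rule that chose them, which was met by 102 rises and 1178 falls. *Slc9a7*, which encodes a proton exchanger of the trans-Golgi network, had normalized TPM of 0.224 and 1.02 at 0 h and of 13.2 and 7.66 at 72 h and the largest log2 change among the rises, 2.82 ± 0.37 (SE, limma adjusted p = 0.00023). *Arhgef28*, which encodes an activator of RHOA, had normalized TPM of 10.6 and 7.15 at 0 h and of 77.2 and 56.3 at 72 h, a log2 change of 2.79 ± 0.32 (SE, limma adjusted p = 9.6e-05). *Rgs9*, which encodes a brake on G protein signalling, had normalized TPM of 1.26 and 1.17 at 0 h and of 10.6 and 9.79 at 72 h, a log2 change of 2.34 ± 0.32 (SE, limma adjusted p = 0.00039). *Slc9a7* and *Rgs9* started from low levels, *Arhgef28* from a moderate one. *Cpe*, which encodes the carboxypeptidase that matures peptide hormones, had normalized TPM of 12.2 and 6.10 at 0 h and of 65.6 and 32.4 at 72 h, a log2 change of 2.29 ± 0.39 (SE, limma adjusted p = 0.0019). *Nphs1*, the nephrin gene, had normalized TPM of 57.5 and 81.1 at 0 h and of 313 and 262 at 72 h, a log2 change of 2.05 ± 0.27 (SE, limma adjusted p = 0.00024), and it overlaps *Nphs1os* on the other strand. The other rises of the 12 were *Cped1* (1.95), *Igsf21* (1.89), *Dock10* (1.70) and *Lncpint* (1.70) besides *Eif4g3*, *Bmf* and *Crebrf*. Among the falls, *Klhl13*, which encodes an adaptor of a ubiquitin ligase that acts in mitosis and lies on the X chromosome, had normalized TPM of 446 and 859.9 at 0 h and of 38.5 and 68.4 at 72 h, a log2 change of −3.57 ± 0.51 (SE, limma adjusted p = 0.00049). *S100a6*, which encodes a calcium-binding protein, had normalized TPM of 29.96 and 77.1 at 0 h and of 4.91 and 3.36 at 72 h, a log2 change of −3.28 ± 0.43 (SE, limma adjusted p = 0.00022). *Aqp3*, which encodes a channel for water and glycerol, had normalized TPM of 81.1 and 97.5 at 0 h and of 7.27 and 15.1 at 72 h, a log2 change of −2.96 ± 0.49 (SE, limma adjusted p = 0.0016). In *Klhl13* and *S100a6* 0 h replicate 2 was the highest of the 4 libraries by a wide margin. The other falls of the 12 were *AU015836* (−3.34) and *Galnt6* (−2.92) besides *Calcoco2*, *Nupr1*, *Scd1*, *Ddit4*, *Chac1*, *Sfmbt2* and *Mthfd2*.

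**Figure D4:**
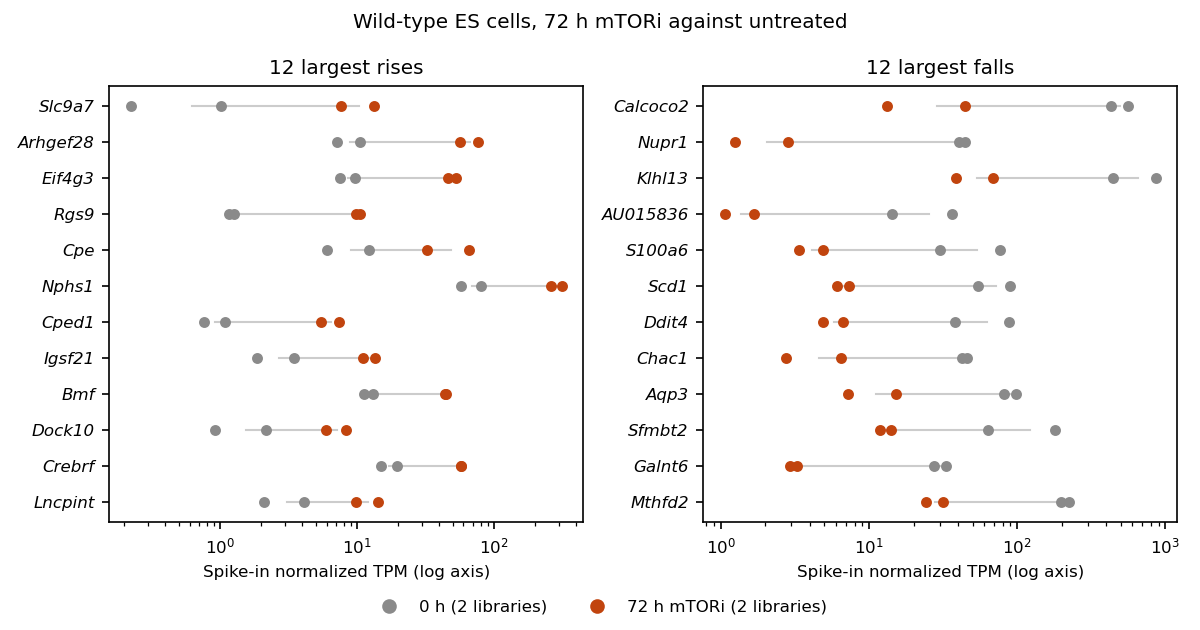
Spike-in normalized TPM in the 4 libraries for the 12 largest rises and the 12 largest falls named by rule, wild type at 0 h and 72 h, on a log axis. Each point is 1 library and a thin line joins the group means, from 493.5 to 28.9 for Calcoco2.

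Of 13 interferon-stimulated genes 2 fell and 0 rose (5 and 0 with the replicate block). Both that fell were genes of membrane proteins that block viral entry. *Ifitm3* had normalized TPM of 431 and 522 at 0 h and of 95.1 and 76.9 at 72 h, a log2 change of −2.46 ± 0.31 (SE, limma adjusted p = 0.00017). *Ifitm1* had normalized TPM of 302 and 403 at 0 h and of 134 and 124 at 72 h, a log2 change of −1.43 ± 0.37 (SE, limma adjusted p = 0.023). By class of gene, 1197 of 13243 protein-coding genes (9.04%) fell and 97 (0.732%) rose, beside 7.6% and 0.697% of all genes. Of 551 lincRNA genes 39 (7.08%) fell and 11 (2.00%) rose. In plain TPM 1886 protein-coding genes were called lower and 1961 higher, and 39 lincRNA genes lower and 70 higher.

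*Lef1*, *Slc16a3* and *Bcl11a* were called higher at 72 h than at 24 h, and *Nupr1* and *Tinagl1* were called lower. At 72 h against 24 h 102 genes (0.559%) were called lower and 78 (0.428%) higher, which became 620 and 583 with the replicate block and 1040 and 972 in plain TPM. The total of 180 became 13 without 72 h replicate 1, 41 without 72 h replicate 2, 118 without 24 h replicate 1 and 67 without 24 h replicate 2. *Lef1*, which encodes a WNT transcription factor, had normalized TPM of 5.45 and 7.48 at 24 h and of 82.5 and 46.2 at 72 h, a log2 change of 3.09 ± 0.32 (SE, limma adjusted p = 5.7e-05). *Slc16a3*, the lactate exporter gene, had normalized TPM of 4.02 and 5.04 at 24 h and of 36.7 and 24.2 at 72 h, a log2 change of 2.49 ± 0.30 (SE, limma adjusted p = 0.00023). *Bcl11a*, which encodes a zinc finger repressor, had normalized TPM of 0.955 and 0.940 at 24 h and of 18.6 and 10.2 at 72 h, a log2 change of 2.93 ± 0.36 (SE, limma adjusted p = 0.00024). All 3 stood below their untreated levels at 24 h, and at 72 h *Lef1* and *Bcl11a* stood above them. Of these 2 genes only *Bcl11a* was called higher at 72 h than at 0 h (1.55). The untreated libraries had 29.6 and 31.7 at 0 h for *Lef1* and 3.32 and 4.92 at 0 h for *Bcl11a*. *Ldha* had normalized TPM of 161 and 193 at 24 h and of 496 and 304 at 72 h, and this difference did not pass the test, with a log2 change of 1.13 ± 0.32 (SE, limma adjusted p = 0.096), but it was called higher with the replicate block (adjusted p = 0.0095) and in plain TPM. *Meg3* had normalized TPM of 161 and 169.6 at 24 h and of 519.9 and 473 at 72 h, a log2 change of 1.58 ± 0.29 (SE, limma adjusted p = 0.0088). *Hkdc1*, which encodes a hexokinase-like protein, had normalized TPM of 8.06 and 16.9 at 24 h and of 0.426 and 0.852 at 72 h, a log2 change of −2.97 ± 0.46 (SE, limma adjusted p = 0.0024). *Meg3* was thus higher in both 72 h libraries than in any earlier wild-type library, and *Hkdc1* was higher in both 24 h libraries than in any other wild-type library. *Tinagl1*, which encodes a secreted matrix protein, had normalized TPM of 35.2 and 15.6 at 24 h and of 2.89 and 1.57 at 72 h, a log2 change of −2.96 ± 0.42 (SE, limma adjusted p = 0.00096). *Nupr1* had normalized TPM of 7.20 and 16.7 at 24 h and of 2.85 and 1.24 at 72 h, a log2 change of −2.04 ± 0.42 (SE, limma adjusted p = 0.022). *Mthfd2* had normalized TPM of 27.5 and 37.001 at 24 h and of 31.5 and 24.3 at 72 h, with a log2 change of −0.20 ± 0.29 (SE, limma adjusted p = 0.95). The 24 h and 72 h libraries overlapped for *Mthfd2* and not for *Nupr1* or *Tinagl1*.

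From 72 h to 144 h 71 genes (0.389%) were called lower and 1 (0.00548%) higher, with 24 genes higher at an unadjusted p under 0.05, and 3372 and 22 were called with the replicate block. In plain TPM 22 genes were called lower and 43 higher, and the median log2 change of all genes was −0.50 in normalized TPM and 0.02 in plain TPM. The total of 72 became 9 without 72 h replicate 1, 1 without 72 h replicate 2, 7 without 144 h replicate 1 and 4 without 144 h replicate 2. *Rhox5* had normalized TPM of 83.9 and 69.6 at 72 h and of 7.30 and 5.20 at 144 h, a log2 change of −3.43 ± 0.28 (SE, limma adjusted p = 1.1e-06). *Cd200*, which encodes a membrane ligand that damps myeloid cells, had normalized TPM of 4.81 and 7.81 at 72 h and of 0.330 and 0.483 at 144 h, a log2 change of −2.35 ± 0.36 (SE, limma adjusted p = 0.0047). *Pramel6*, which encodes a factor of the inner cell mass, had normalized TPM of 11.1 and 15.6 at 72 h and of 2.07 and 1.69 at 144 h, a log2 change of −2.31 ± 0.41 (SE, limma adjusted p = 0.014). Of these 3 genes *Rhox5* and *Pramel6* had fallen already at 72 h against 0 h, and *Cd200* had not passed the test there. *Ndufa4l2*, a HIF target gene that encodes a mitochondrial protein, was the gene called higher, with normalized TPM of 0.895 and 0.334 at 72 h and of 5.94 and 6.21 at 144 h and a log2 change of 2.15 ± 0.33 (SE, limma adjusted p = 0.0047), and it overlaps *Shmt2* on the other strand. Its untreated libraries had 6.87 and 5.67 at 0 h. *Eif4g3* had normalized TPM of 52.7 and 46.3 at 72 h and of 31.6 and 30.8 at 144 h, and *Crebrf* of 57.9 and 57.3 at 72 h and of 36.5 and 34.9 at 144 h. Neither change passed the test (limma adjusted p = 0.27 and 0.26), and both genes were called lower with the replicate block (adjusted p = 0.0488 and 0.044).

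The DKO cells at 72 h give a second set of values for the named genes, from cells labelled *Tet1/2* DKO and from other libraries. The median log2 change over all genes was −0.12 in DKO cells and −0.33 in wild type, so equal changes stand differently against the bulk. A response at 72 h that differed between DKO and wild type was called by limma for 0 of 18232 genes, and 181 genes had an unadjusted p under 0.05. Such a difference was called for 1 gene without wild-type 0 h replicate 1, for 9 without DKO 0 h replicate 1 and for 2 without DKO 0 h replicate 2. *Nupr1* had normalized TPM of 86.7 and 67.96 at 0 h and of 1.10 and 0.968 at 72 h in DKO cells, with a log2 change of −5.26 ± 0.42 (SE, limma adjusted p = 9e-07) beside −3.88 ± 0.42 in wild type, and the difference of the responses was −1.37 ± 0.59 (SE, limma adjusted p = 1). *Eif4g3* had normalized TPM of 7.02 and 3.70 at 0 h and of 24.9 and 13.2 at 72 h in DKO cells, with a log2 change of 1.64 ± 0.37 (SE, limma adjusted p = 0.017) beside 2.40 ± 0.37 in wild type. *Crebrf* had normalized TPM of 18.3 and 15.8 at 0 h and of 70.3 and 51.2 at 72 h in DKO cells, with a log2 change of 1.76 ± 0.31 (SE, limma adjusted p = 0.003) beside 1.70 ± 0.31 in wild type. The 3 genes kept the direction of wild type in DKO cells without overlap of the groups. *Nanog* had normalized TPM of 729.6 and 693 at 0 h and of 473 and 215 at 72 h in DKO cells, with a log2 change of −1.15 ± 0.34 (SE, limma adjusted p = 0.068) that did not pass the test and was called lower with the replicate block (adjusted p = 0.003) and in plain TPM. The difference of the *Nanog* responses was 0.15 ± 0.49 (SE, limma adjusted p = 1), so it was not shown to differ between the genotypes.

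**Figure D5:**
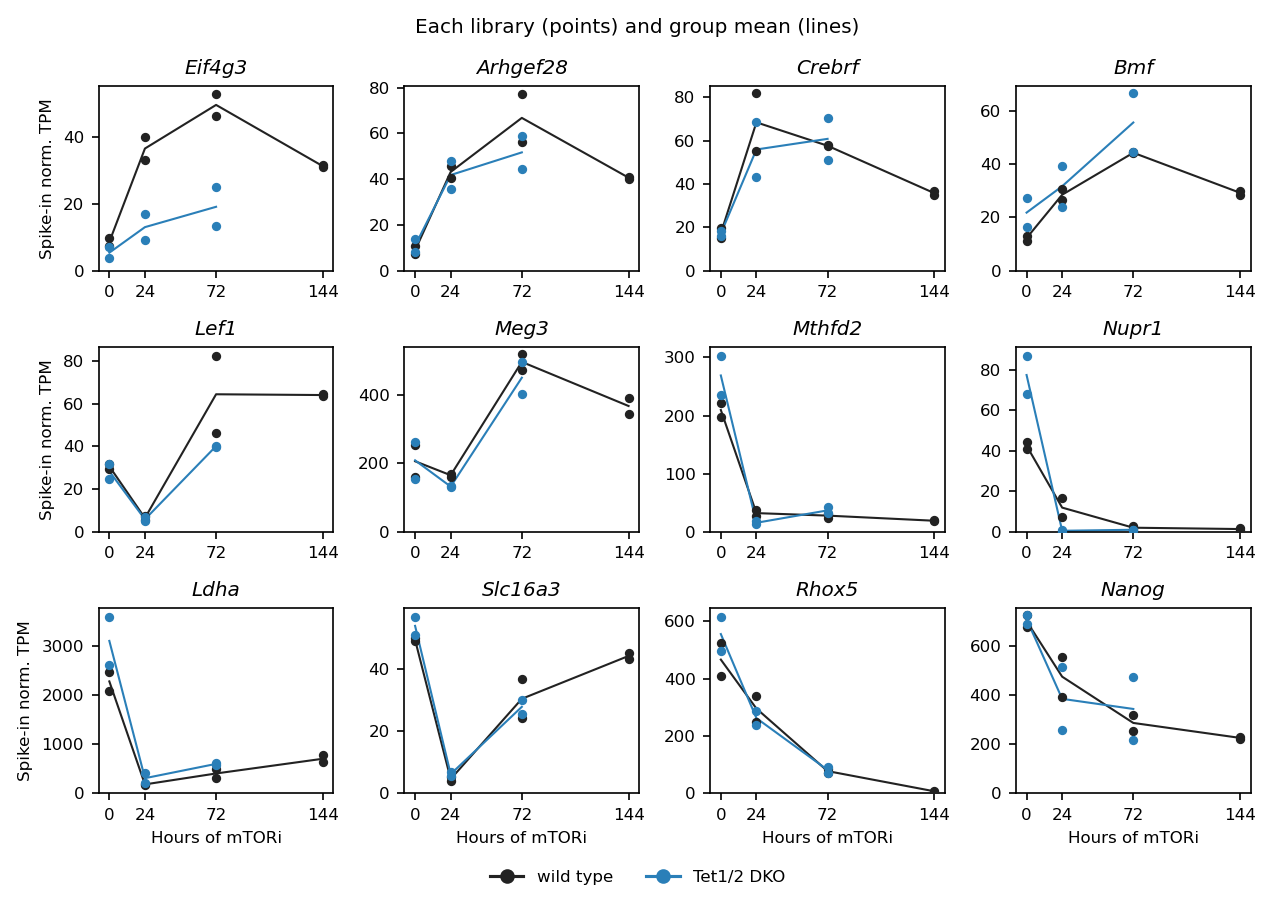
Spike-in normalized TPM of 12 genes against hours of mTORi, with points for libraries and lines through group means, wild type in black and Tet1/2 DKO in blue. In wild type Lef1 and Slc16a3 are lowest at 24 h, Eif4g3 and Crebrf are higher in every treated library than in the untreated ones, and Rhox5 reads 7.30 and 5.20 at 144 h.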

How the data were processed

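RNA-seq of total RNA with ERCC spike-ins was performed on E14 mouse ES cells that had been sorted before extraction. The authors trimmed reads with cutadapt 2.4, aligned them to mm10 with STAR 2.7.3a and quantified GENCODE genes with StringTie 2.0, by the submitters' processing notes (the paper's methods give later releases of the last 2 tools). The deposited values are TPM per gene, scaled by the authors to a sum of 1000000 per library. They hold no counts, so the depth and the counting error are unknown. No strand setting is stated in the sources used here.

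TPM was summed per gene ID and multiplied by 1 factor per library, the median ratio of the authors' ERCC-normalized table, of which a shortened copy was used, to the deposited TPM over genes of at least 1 TPM. The ratio was nearly the same for all genes of a library. log2(value + 1) was fitted with limma 3.58.1 in R 4.3.3 (means of the 7 groups of 2 libraries, empirical Bayes with a trend) over 18232 genes (mean normalized TPM of at least 1), with Benjamini-Hochberg adjustment and calls at 0.05. The authors' DESeq2 test needs counts and was not run. Samples were grouped by their labels. On simulated data with 200 changed genes of 18232, a log2 change of 1, 2 or 3 was called for 5.5%, 90% or 100% of them in the comparison of 72 h with 0 h. The changed genes were drawn only from genes of higher untreated level. Far more genes were called in the data (1385 lower and 127 higher), which eases the adjusted threshold, so these shares do not carry over. In the data 208 genes with a log2 change between −1.1 and −1.0 were called and 246 were not. A gene that was not called may thus have changed by 2-fold.

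Replicate numbers pair the time points of a genotype, as the reporting summary states that they were processed in parallel. The replicate differences at 0 h and 72 h of wild type correlated at 0.311 over genes (0.0622 to 0.398 over all wild-type pairs of times). The fit with that replicate block was an alternative.

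The members of all lists and the genes named were chosen with earlier results of these data known. The genes named are the 12 largest rises and 12 largest falls at 72 h against 0 h among called genes whose groups do not overlap (span of at least 200 bp, no predicted or pseudogene symbols), fixed genes of each list with its largest called rise and fall, members of the miR-290 to miR-295 cluster, and called genes among the 5 largest changes in each direction between 72 h and the other treated times. *Bak1*, *Castor1*, *Col4a1*, *Grb10*, *Ifitm1*, *Irs1*, *Klhl24*, *Lamtor4*, *Mirg*, *Pdk1*, *Plagl1*, *Rhox6*, *Rhox9*, *Rian*, *Rrm2*, *Sec13*, *Spry1* and *Tpi1*, and the genes of other comparisons followed over time or in DKO cells, were chosen after their values were seen. Motifs were sought in RefSeq promoters. Gene positions and overlaps were taken from the deposited gene entries, and classes of gene from GENCODE vM21.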

Additional observations from a re-analysis of the deposited data

How the results depend on the processing

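The main comparison was recomputed with another scaling, pseudocount, filter, set of libraries, replicate block or variance model, and without each library. Against 1385 genes called lower and 127 called higher at 72 h, there were 2080 and 2301 in plain TPM, 2917 and 1653 in median-centred TPM, 4347 and 481 with the wild-type libraries only, 4724 and 507 with the 4 libraries only, 4633 and 519 with the replicate block by genotype, and 2773 and 3059 in plain TPM with that block, an alternative chosen after seeing the data. Genes called lower numbered 639 with no filter. Leaving out 1 of the 4 libraries gave 58 to 445 lower and 9 to 32 higher, and the lone sample left is then assumed to vary like the other groups. Pseudocounts of 0.1 and 5, the other filters, the block across all libraries and the other variance models kept both counts within 1.5 times.

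The 180 genes called at 72 h against 24 h became 2012 in plain TPM, 2080 in median-centred TPM, 40 with no filter, 740 with the wild-type libraries only, 1203 with the replicate block by genotype, 100 with the block across all libraries, 3220 in plain TPM with the block and 13 to 210 without 1 library. The 72 genes called at 144 h against 72 h became 143 and 18 with pseudocounts of 0.1 and 5, 23 (14 lower and 9 higher) with no filter, 138 with a minimum mean of 5, 3334 with the wild-type libraries only, 3394 with the replicate block by genotype, 42 with the block across all libraries, 122 with a robust fit, 208 (111 lower and 97 higher) in plain TPM with the block and 1 to 60 without 1 library. Plain and median-centred TPM gave 22 lower and 43 higher and 21 lower and 39 higher there. The difference of the DKO and wild-type responses was called for 15 genes with no filter and for 0 to 9 without 1 library. Leaving out 24 h, 144 h or DKO libraries was added after seeing the data. The cause of these shifts was not tested.

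Of the 101 genes named as called at 72 h against 0 h, all kept their direction under every alternative in which they were tested (96 of them with a minimum mean of 5). Of the 101, 96 kept the call in plain TPM, 61 with no filter, and 63, 44, 57 and 28 kept it without 0 h replicate 1, 0 h replicate 2, 72 h replicate 1 and 72 h replicate 2. The replicate block within each genotype ended the call of 0 of these 101. With the block across all libraries 97 kept it, without a variance trend 89 and with a robust fit 95. In median-centred TPM 96 kept it, and with a pseudocount of 5 there were 95.

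Some genes not called changed sign. In plain TPM, with or without the block, the log2 change was 0.072 for *Hk2*, 0.054 for *Lamp1*, 0.32 for *Mki67* and 0.23 for *Tfe3*. In median-centred TPM it was 0.21 for *Mki67* and 0.12 for *Tfe3*. Leaving out 1 library gave −1.12 to 0.24 for *Gata6*, −0.25 to 0.040 for *Mki67*, −0.016 to 0.83 for *Myc*, −0.41 to 0.034 for *Tfe3* and −0.41 to 0.011 for *Mthfd2* at 72 h against 24 h. The difference of the *Nanog* responses was −0.054 in median-centred TPM and −0.42 to 0.71 without 1 library.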

Other observations

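Each of the 14 library factors equalled 76 divided by a whole number, to within 0.005 of that number, which was 36 in both untreated wild-type libraries, 46 and 51 at 72 h and 76 at 144 h replicate 2. A step of 1 in that whole number changes the factor by 2.78% at 0 h and by 2.17% and 1.96% at 72 h. What the whole numbers count was not tested.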
